A study of Mus musculus with 32 samples.

Results

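The genes of the LKB1-STRAD-MO25 complex were followed across all libraries of a mouse lung tumor study in which *Lkb1* could be switched off and on again. The complex genes are *Stk11*, which encodes LKB1, *Strada* and *Stradb*, which encode the STRAD proteins, and *Cab39* and *Cab39l*, which encode the MO25 proteins. They were taken by name as the subunits of the complex and are 5 of the 53558 genes in the deposited files, each present in every file. The comparison addressed here is whether the partner genes differ in RNA level when *Stk11* is trapped or restored.

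RNA was sequenced in bulk from sorted neoplastic cells in 32 libraries of 5 groups. All mice shared the same Cre-dependent tumor-initiating allele and Rosa26LSL-tdTomato, so that Lenti-Cre delivered to the airways started tumors and turned on a red reporter in the same cells. *KT* tumors (4 libraries) had wild-type *Lkb1* and received no treatment. Non-restored tumors (10 libraries) were homozygous for Lkb1XTR and stayed trapped, 6 of them with Rosa26FLPo-ERT2 and vehicle and 4 with tamoxifen but without FLPo-ERT2. Restored tumors (7 libraries) were homozygous for Lkb1XTR, carried FLPo-ERT2 and received 4 mg doses of tamoxifen over 2 weeks. These groups had wild-type *Trp53* and were collected 24 to 27 weeks after initiation. The same non-restored and restored states were sampled at 16 to 19 weeks in mice that were also Trp53flox/flox. These gave 7 non-restored libraries from 4 animals (5 vehicle libraries, 2 tamoxifen) and 4 restored libraries. Libraries that share an animal name in the labels were summed for every test except an alternative named below. Such names occur only among the *Trp53*-deficient non-restored libraries. In tests of tumors with wild-type *Trp53*, each library was a separate unit. For its trapped and its restored tumors of that genotype, the study counts fewer mice than libraries. There, n = 10 and n = 7 count libraries, and SEs and p-values may be too small. The XTR line descends from a single targeted clone of embryonic stem cells. Among the groups with wild-type *Trp53*, the *KT* mice were given a lower dose of Lenti-Cre than the others. Lenti-Cre acts in any infected lung cell rather than in a chosen cell type.

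LKB1 is a serine/threonine kinase and tumor suppressor that is often lost in lung adenocarcinoma. It is unusual among kinases in that it is turned on by assembly rather than by phosphorylation of its activation loop: a STRAD pseudokinase binds it and holds it in an active shape, and an MO25 scaffold protein locks the assembly and favors its place in the cytoplasm. The assembled kinase phosphorylates the activation loop of AMPK and of the related SIK, MARK, NUAK, BRSK and SNRK kinases. STRADα and STRADβ can substitute for each other in this role, as can MO25α and MO25β, and MO25 proteins also bind and activate several STE20 family kinases.

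The trap acts at the join between the first 2 exons of *Stk11*, so that sequence is shown as the feature on which all groups rest. In GRCm38 (mm10) *Stk11* lies on the plus strand at chr10:80115803-80130682, and in the GENCODE M21 transcript with 10 exons its first exon (1105 bp, of which 290 bp are coding) ends at 80116907 and its second (84 bp) starts at 80124802. The intron of 7894 bp between them carries the XTR cassette, an inverted splice acceptor with eGFP that Cre turns into the reading direction and that FLPo-ERT2 later removes. The 30 bases on each side of the spliced join, from the reference transcript, read 5′ to 3′ as follows, with lower case for the end of exon 1 and capitals for the start of exon 2.
Stk11 exon 1 to exon 2: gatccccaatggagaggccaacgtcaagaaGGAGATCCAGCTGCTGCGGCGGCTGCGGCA
Reads across this join can come from an untrapped or restored allele but not from a transcript that splices into the cassette. The deposited counts are per gene, so reads of exon 1, which lies upstream of the cassette, were not separated from those of exons 2 to 10 here.

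*Stk11* separated the non-restored libraries from all others without overlap. In CPM (counts relative to the library total after TMM scaling) the 4 *KT* libraries measured 19.2, 16.6, 27.3 and 26.4, from 20 to 67 counts each. The 10 non-restored libraries held at most 2 counts each, 2 of them none, and 10 counts in all. Restored libraries ranged from 11.6 through a median of 15.3 to 22.4 CPM (18 to 130 counts). The *Trp53*-deficient restored animals measured 12.9, 8.5, 10.9 and 14.9 CPM, while the 7 *Trp53*-deficient non-restored libraries held at most 2 counts each, 3 of them none.

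Non-restored groups were thus at the floor, set at 3 counts per library, the limit that a count of 0 allows. It was used for all their libraries, which held 0 to 2 counts each, although the limit of a single library with counts is higher. Folds against this floor are given as lower bounds for the group means and cover counting error only. *KT* tumors, with a mean of 22.4 CPM ± 5.28 (SD, n = 4), were at least 18.8-fold higher in *Stk11* than the non-restored floor. Restored tumors, with 15.8 CPM ± 3.56 (n = 7), were at least 13.2-fold higher than that floor. Its adjusted p-values in edgeR's quasi-likelihood test over all genes were 6.58e-10 and 9.83e-10, the smallest of 12636 genes in both comparisons. In *Trp53*-deficient tumors it was at least 11.8-fold higher after restoration (11.8 CPM ± 2.74, n = 4). It again had the smallest p of the fit, 4.69e-06 before and 0.0587 after adjustment over 12518 genes, with all 4 restored animals above all 4 non-restored animals. The adjusted p was under 0.05 in 5 of 13 alternatives, among them DESeq2 (4.03e-10), all 7 non-restored libraries as separate units (0.0174) and the fit without non-restored animal rSP50 (0.0388). The fit with separate units treats libraries of the same animal as independent, so its p may be too small. The adjusted p was 0.345 without restored animal tSP106.

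The restored level of *Stk11* stood at 70.5% of the *KT* mean in CPM, and this share ran from 64.9% to 76% when single libraries were left out. Only 2 of 7 restored libraries lay above the lowest *KT* library. The log2 fold change of restored against *KT* was -0.51 (SE 0.299, 95% interval -1.13 to 0.11, adjusted p = 0.583), and as a fold the interval ran from 0.457 to 1.08. *Trp53*-deficient restored tumors stood at 52.7% of the *KT* mean, with 0 of 4 above the lowest *KT* library. No test was fitted for that pair of groups, which also differ in *Trp53* and in tumor age. The length that RSEM gave the *Stk11* transcript mix was similar in the 3 expressing groups, with medians of 1404 bp for *KT*, 1448 bp for restored and 1602 bp for *Trp53*-deficient restored libraries.

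**Figure D1:**
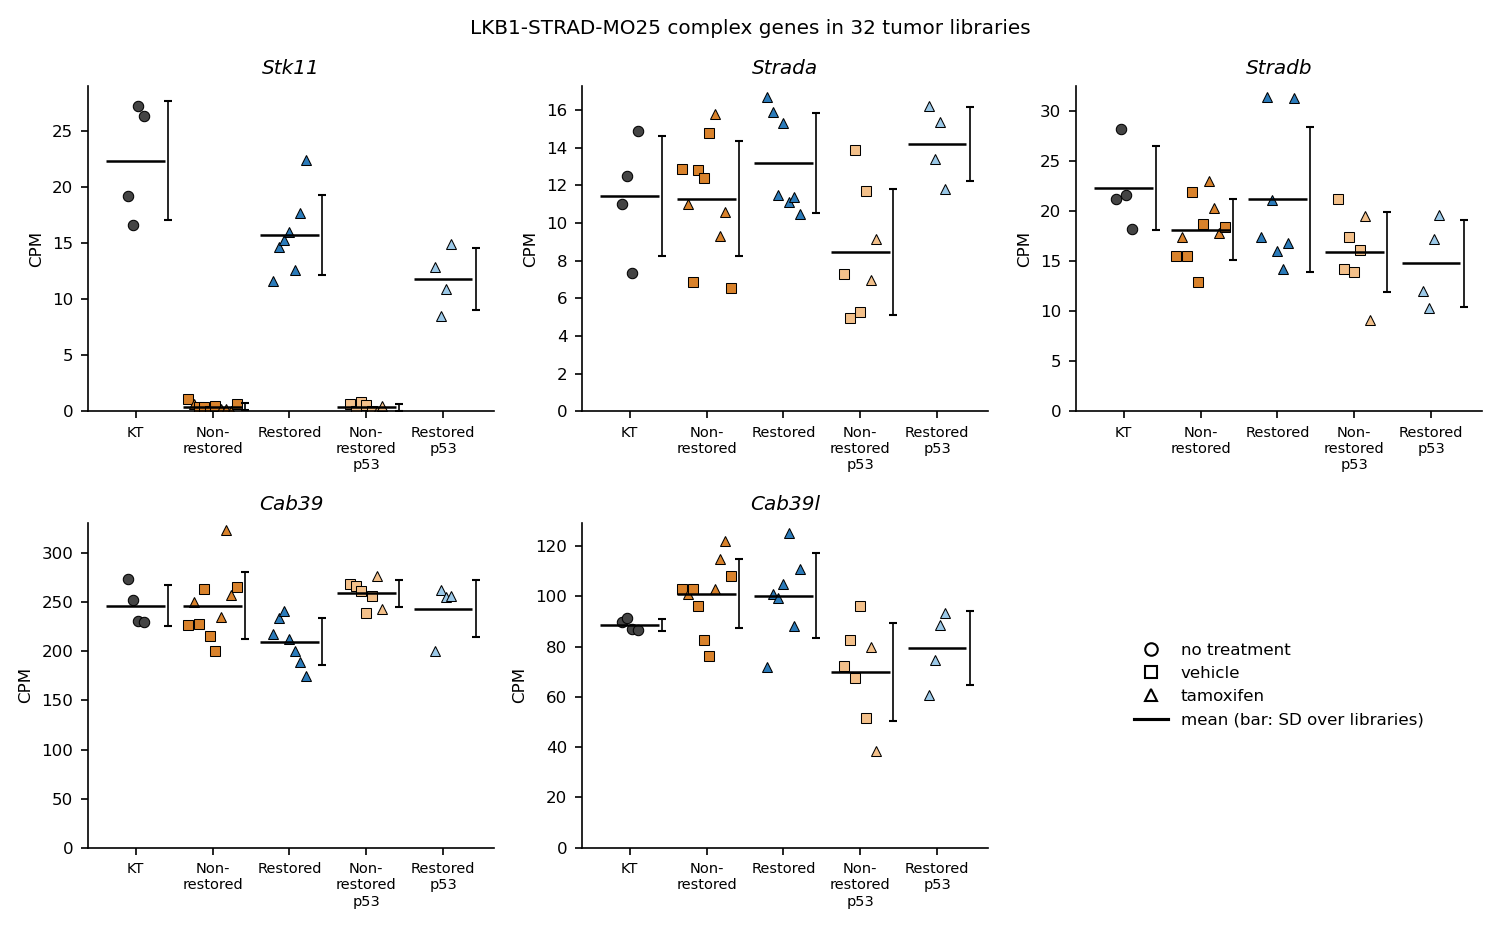
CPM of the complex genes in each of the 32 libraries, by group, with symbols for the treatment, a line at the group mean and a bar for the SD over libraries. *Stk11* is near 0 in both non-restored groups and between 8.5 and 27.3 CPM elsewhere, while the ranges of *Strada*, *Stradb*, *Cab39* and *Cab39l* overlap between the *Trp53* wild-type groups.

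None of the 4 partner genes passed an adjusted p of 0.05 in any comparison of *Trp53* wild-type groups. Beside the genes as a whole, 1.87% passed in restored against non-restored tumors (236 of 12636), 5.86% in non-restored against *KT* (741) and 0.459% in restored against *KT* (58). The share of genes as cleanly separated as *Stk11* was 0.34% for restored libraries all above non-restored ones and 2.37% for non-restored libraries all below *KT* ones. No partner gene was separated in this way in either comparison. With single libraries left out, the counts of called genes ran from 145 (without restored replicate 7) to 319, from 340 (without *KT* replicate 1) to 951 and from 21 (without *KT* replicate 1) to 96, and 0 of 4 partners passed in every such fit. These counts do not show that the partners were equal, and the intervals of the differences give what the data allow.

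*Strada*, which encodes STRADα (chr11:106163330-106202168, minus strand), was the least abundant partner. It measured 11, 12.5, 7.32 and 14.9 CPM in the *KT* libraries, from 6.57 through 11.7 to 15.8 in non-restored libraries and from 10.5 through 11.5 to 16.7 in restored ones. The ranges overlapped throughout, although 5 of 7 restored libraries lay above the non-restored mean. The log2 fold change was 0.21 for restored against non-restored (SE 0.191, 95% interval -0.19 to 0.60, adjusted p = 0.671). Against *KT*, the interval for non-restored tumors ran from -0.50 to 0.49 with a mean of 11.3 CPM ± 3.07 (SD, n = 10) beside 11.4 ± 3.16 (n = 4). On the TPM scale, which divides by transcript length, the order of the restored and non-restored means was the other way round, 6.92 TPM ± 1.35 (n = 7) against 7.13 ± 1.7 (n = 10). The RSEM length of *Strada* differed between these groups, with medians of 2577 and 2368 bp.

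*Stradb*, which encodes STRADβ (chr1:58973522-58995715, plus strand), was more abundant than *Strada* and more spread within the restored group. It measured 21.2, 28.2, 21.6 and 18.2 CPM in *KT* libraries, from 12.9 through 18.1 to 23 in non-restored libraries and from 14.2 through 17.4 to 31.4 in restored libraries. Restored replicates 2 and 7, at 31.4 and 31.3 CPM, stood apart from the other restored libraries, which reached 21.1. The restored spread of 34.3% of the mean compares with 11.5% expected from counting error alone at a mean of 75.9 counts. The log2 fold change was 0.22 for restored against non-restored (SE 0.172, interval -0.14 to 0.57, adjusted p = 0.598) and -0.29 for non-restored against *KT* (SE 0.21, interval -0.72 to 0.15, adjusted p = 0.465).

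*Cab39*, which encodes MO25α (chr1:85793441-85851576, plus strand), was the most abundant gene of the complex and the best measured, with 304 to 1552 counts per library. In *KT* libraries it measured 274, 252, 231 and 230 CPM. Non-restored libraries ran from 200 through 242 to 324 CPM and restored libraries from 175 through 213 to 241. All 7 restored libraries lay below the non-restored mean of 247 CPM ± 34.5 (SD, n = 10), and 3 of them lay below every non-restored library, but the ranges overlapped. The restored mean was 210 CPM ± 23.6 (n = 7), a fold of 0.851 (95% interval 0.742 to 0.976) and a log2 fold change of -0.23 (SE 0.0954). Its p was 0.0231 before and 0.237 after adjustment, and 1913 of the 12636 genes reached an unadjusted p under 0.05 here. The difference was -0.15 against the vehicle arm of the non-restored group alone and -0.34 against its tamoxifen arm alone, with adjusted p-values of 0.572 and 0.244. Non-restored against *KT* tumors gave a log2 fold change of -0.00 (SE 0.114, interval -0.24 to 0.23, adjusted p = 0.993). Restored against *KT* tumors gave -0.24 (SE 0.12, interval -0.49 to 0.01, adjusted p = 0.503), so the restored level was the lowest of the 3 groups.

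*Cab39l*, which encodes MO25β (chr14:59440972-59585764, plus strand), showed the smallest difference between restored and non-restored tumors. It measured 89.7, 91.3, 87 and 86.4 CPM in *KT* libraries, from 76.2 through 103 to 122 in non-restored and from 72 through 101 to 125 in restored libraries. The means were 101 CPM ± 13.6 (SD, n = 10) without and 100 ± 17 (n = 7) with restoration, and the 95% interval of the fold ran from 0.855 to 1.16. In *KT* tumors the mean was 88.6 CPM ± 2.31 (n = 4), with 8 of 10 non-restored libraries above every *KT* library. The log2 fold change of non-restored against *KT* was 0.19 (SE 0.129, interval -0.08 to 0.45, adjusted p = 0.435). The *KT* spread of 2.6% was under the 7.94% that counting error gives at 158.8 counts, so these 4 libraries lay closer together than their depth would give on average.

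Levels of different members were compared only in TPM. Across the 32 libraries the median was 94.8 TPM for *Cab39*, 47.8 for *Cab39l*, 10.8 for *Stradb*, 6.47 for *Strada* and 1.45 for *Stk11*. The *Stk11* median equals the highest value of both non-restored groups, so it is a level of the off state. *Cab39* exceeded *Cab39l* in 32 of 32 libraries and *Cab39l* exceeded *Stradb* in 32 of 32, so this order did not depend on the group. *Stradb* exceeded *Strada* in 28 of 32 libraries. Among 13255 expressed genes, the mean TPM of *Cab39* was at the 91.3 percentile and that of *Strada* at the 34.8 percentile.

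In the tumors that expressed *Stk11*, its TPM exceeded that of *Stradb* in 4 of 4 *KT*, 6 of 7 restored and 4 of 4 *Trp53*-deficient restored libraries, and *Cab39l* exceeded it in every one. In *KT* tumors *Stk11* measured 22.5 TPM ± 6.12 (SD, n = 4) beside a *Strada* and *Stradb* sum of 17.3 ± 2.54 and a *Cab39* and *Cab39l* sum of 130 ± 3.65 TPM. In restored tumors the 3 values were 16.2 ± 3.02, 19.2 ± 2.77 and 135 ± 25.6 TPM (n = 7). *Stk11* exceeded the STRAD sum in 3 of 4 *KT* libraries, 1 of 7 restored libraries and 0 of 4 *Trp53*-deficient restored libraries. The sums in non-restored tumors, without *Stk11*, were 18.1 ± 3.11 TPM for STRAD and 155 ± 20.1 for MO25 (n = 10), in ranges that overlap those of the *Stk11*-expressing groups. RNA levels are not protein levels, and the amounts of assembled complex were not measured here.

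**Figure D2:**
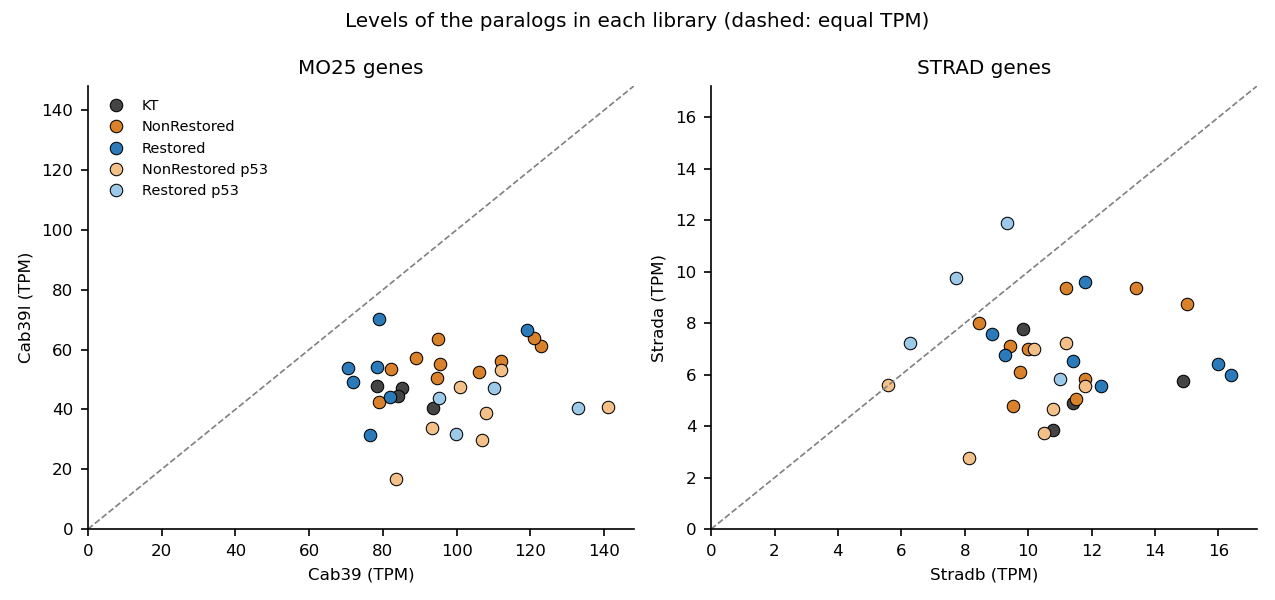
TPM of *Cab39l* against *Cab39* (left) and of *Strada* against *Stradb* (right) in each of 32 libraries, colored by group, with a dashed line at equal TPM. All 32 libraries lie below the line for the MO25 genes, and 28 do for the STRAD genes, with 3 of the 4 *Trp53*-deficient restored libraries above it.

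The ratio of the MO25 genes reached higher values in *Trp53*-deficient tumors. *Cab39* was 1.64 to 2.3 times *Cab39l* in *KT* libraries in TPM, 1.49 to 2.01 times in non-restored and 1.12 to 2.43 times in restored libraries. In the *Trp53*-deficient libraries it was 2.1 to 5.01 times without and 2.17 to 3.27 times with restoration. The *Stradb* to *Strada* ratio in TPM had a median of 2.47 in *KT* libraries, 1.51 without and 1.74 with restoration in the *Trp53* wild-type groups. The corresponding medians with *Trp53* deletion were 2.13 and 0.828. These ratios are given as a description and were not tested.

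In *Trp53*-deficient tumors no partner gene passed the adjusted threshold on restoration, and *Strada* had the smallest p of the 4. *Strada* measured 8.94, 8.12, 6.97 and 9.16 CPM in the 4 non-restored animals and 16.2, 13.4, 15.4 and 11.8 in the 4 restored animals, so that the groups did not overlap. The log2 fold change was 0.81 (SE 0.226, 95% interval 0.30 to 1.31), with a p of 0.00507 before and 0.803 after adjustment. In this comparison 0% of 12518 genes passed the adjusted threshold in edgeR, 748 had an unadjusted p under 0.05 and DESeq2 called 23. In 1.85% of all genes (231) every restored animal lay above every non-restored animal. Within the non-restored animals, single libraries of the animal JB3453 ran from 4.93 to 13.9 CPM and reached the restored range, at 9 to 36 counts. *Strada* kept its sign in all 14 alternatives, from 0.69 to 0.87.

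*Stradb* measured 18.3, 14.9, 19.5 and 9.16 CPM in the same non-restored animals and 12, 10.3, 17.2 and 19.6 in the restored ones. The groups overlapped, and the log2 fold change was -0.06 (SE 0.298) within an interval from -0.72 to 0.61, which spans differences in either direction. *Cab39* measured 266, 247, 277 and 243 CPM without and 200, 263, 255 and 257 CPM with restoration, with an interval from -0.35 to 0.23. *Cab39l* measured 73.2, 76, 79.7 and 38.5 CPM without and 60.9, 74.7, 88.6 and 93.5 CPM with restoration, with an interval from -0.26 to 0.80. Adjusted p-values for these 3 genes lay between 0.841 and 0.974.

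Whether restoration acted differently in the *Trp53* backgrounds was tested directly as an interaction, which 0% of 13705 genes passed (424 had an unadjusted p under 0.05, and DESeq2 also called 0). For *Strada* the difference of the log2 fold changes was 0.56 (SE 0.299, interval -0.05 to 1.18, unadjusted p = 0.0698, adjusted p = 1). For *Stradb* it was -0.32 (SE 0.33), for *Cab39* 0.14 (interval -0.18 to 0.46) and for *Cab39l* 0.24 (interval -0.24 to 0.72). The apparent difference of *Strada* between the backgrounds was thus not established by the test of the difference itself. For *Stk11* both non-restored groups were at the floor, and no difference of folds is given.

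*Trp53* status was also compared within each *Lkb1* state, where tumor age differs along with genotype and the effects of age and genotype cannot be told apart. In non-restored tumors *Cab39l* was 66.9 CPM ± 19.1 (SD, n = 4 animals) with *Trp53* deletion and 101 ± 13.6 (n = 10) without. The log2 fold change was -0.59 (SE 0.165, interval -0.93 to -0.25, unadjusted p = 0.00146, adjusted p = 0.0868), and 0.598% of genes passed the threshold (82 of 13705). All 4 *Trp53*-deficient animals lay below the mean of the *Trp53* wild-type libraries, and 3 of them lay below all 10. Of these, JB3839 at 76 CPM was just under the lowest *Trp53* wild-type library at 76.2. Single libraries of JB3839 measured 96 and 51.4 CPM and those of JB3453 from 67.6 to 82.7, so some lay within the *Trp53* wild-type range. The summed level of 7 alveolar epithelial markers had medians of 15588 CPM with and 29569 CPM without *Trp53* deletion, while the median of the markers' log2 fold changes was 0.09 and 0 of 7 were called, and their part in this result was not tested. DESeq2 gave an adjusted p of 0.0211 and called the gene. The value was -0.40 (adjusted p = 0.398) without animal rSP66, whose single library held 84 *Cab39l* counts, and -0.58 (adjusted p = 0.029) without non-restored replicate 8, where 1450 genes in all passed.

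In restored tumors *Cab39l* was 79.4 CPM ± 14.7 (n = 4) with and 100 ± 17 (n = 7) without *Trp53* deletion, which gave -0.35 on the log2 scale (SE 0.171, interval -0.70 to 0.00, adjusted p = 0.327). Here 0.372% of genes passed (51 of 13705). *Stradb* was 14.8 CPM ± 4.36 (n = 4) beside 21.2 ± 7.25 (n = 7), a log2 difference of -0.54 (SE 0.245, unadjusted p = 0.0368, adjusted p = 0.295). For *Strada* in non-restored tumors the means stood at 8.3 CPM ± 0.992 (n = 4) beside 11.3 ± 3.07 (n = 10), a log2 difference of -0.46 (SE 0.21, unadjusted p = 0.038, adjusted p = 0.255), while in restored tumors the log2 difference was 0.10. *Cab39* had log2 fold changes of 0.07 and 0.21 with adjusted p-values of 0.772 and 0.376. The mean of *Stk11* in restored tumors was 11.8 CPM with and 15.8 without *Trp53* deletion (log2 fold change -0.44, interval -1.18 to 0.31, adjusted p = 0.569). No member passed in either of these comparisons.

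**Figure D3:**
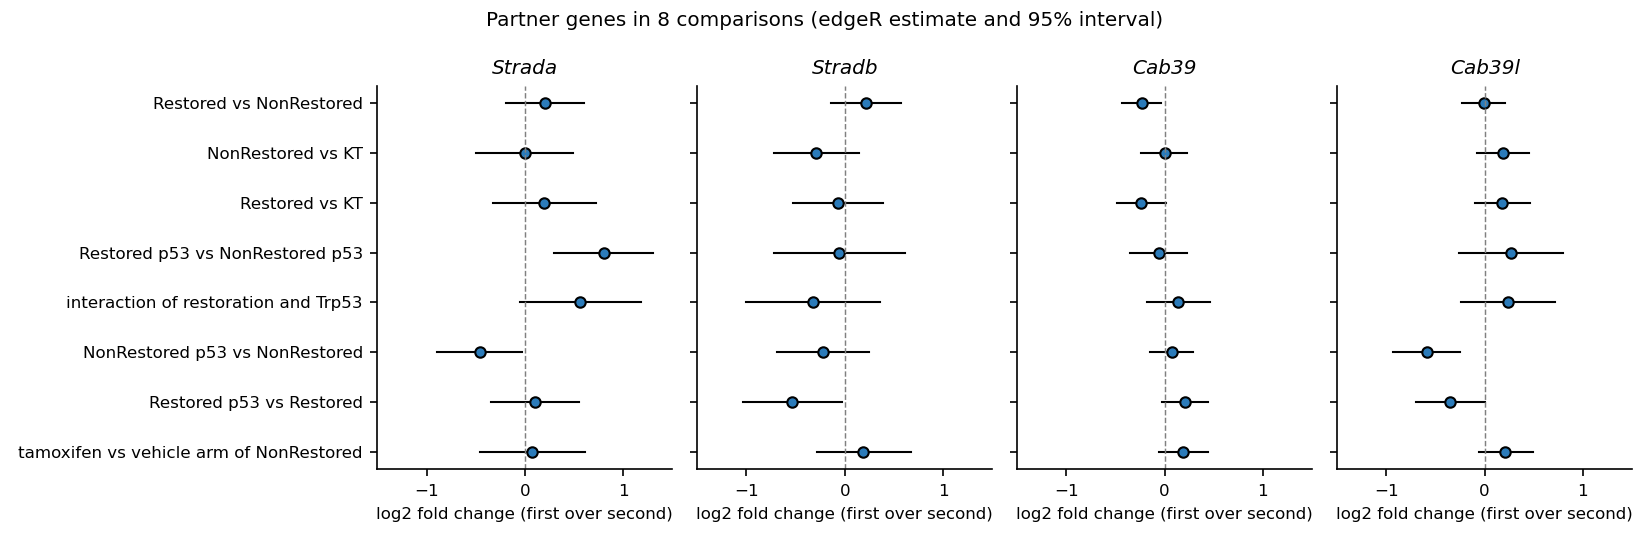
Log2 fold changes of the 4 partner genes in 8 comparisons (point, edgeR estimate of the first group over the second) with 95% intervals (line) and a dashed line at 0. Among the *Trp53* wild-type groups every estimate lies between -0.29 and 0.22, and the interval of *Strada* on restoration in *Trp53*-deficient tumors runs from 0.30 to 1.31.

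The non-restored group pools a tamoxifen arm and a vehicle arm. Drug and FLPo-ERT2 differ fully between these arms, while both sexes occur in each arm in unlike shares. The log2 fold changes of the tamoxifen arm over the vehicle arm were 0.07 for *Strada*, 0.19 for *Stradb*, 0.19 for *Cab39* and 0.21 for *Cab39l*, with adjusted p-values of 1 and intervals that all include 0. Over all genes 0.00791% passed (1 of 12636). *Cab39* was 266 CPM ± 39.3 (n = 4) in the tamoxifen arm and 233 ± 26.4 (n = 6) in the vehicle arm, and *Cab39l* was 110 ± 9.59 and 95 ± 12.9. *Stk11* was at the floor in both arms, with 3 counts in all in the tamoxifen arm and 7 in the vehicle arm. All restored libraries came from females. With female libraries only, the restored against non-restored value of *Cab39* was -0.20 (adjusted p = 0.417).

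The genes that act next to the complex were counted from lists by role. Of the 14 kinases that LKB1 phosphorylates, 11 were tested in restored against non-restored tumors (*Brsk1*, *Brsk2* and *Mark1* were too low), and 1 was called lower and 0 higher, where 1.87% of all genes passed in either direction. The list median was -0.07 on the log2 scale beside -0.01 over all genes. The gene called was *Sik1*, a salt-inducible kinase whose transcription responds to CREB and which acts on CREB coactivators. It ran from 59.7 through 61.7 to 85.7 CPM in restored libraries and from 85.2 through 116 to 207 in non-restored libraries, while the *KT* mean was 62.8 CPM ± 18.7 (SD, n = 4). *Sik1* was lower on restoration (log2 fold change -0.85, SE 0.18, adjusted p = 0.0133) and higher in non-restored than in *KT* tumors (0.99, SE 0.226, adjusted p = 0.0112), the only call of the list there. Both comparisons share the non-restored libraries. The first call was lost against the tamoxifen arm alone (-0.92, adjusted p = 0.0897), and the second without *KT* replicate 1 (0.82, adjusted p = 0.056) and in female libraries only (0.76, adjusted p = 0.248). *Mark2* had the highest median TPM of these kinases over all libraries, 77.7, and *Prkaa1* and *Prkaa2*, the AMPK α1 and α2 subunits, stood at 24.2 and 5.92. The order below *Mark2* differed between groups, with *Sik1* at a median of 19.2 TPM in *KT* and 36.6 in non-restored libraries and *Prkaa1* at 19.7 and 27.7.

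The 5 STE20 kinases that bind MO25 were all tested in this comparison and 0 were called in either direction (1.87% over all genes), with a list median of -0.27 beside -0.01 over all genes and a range from -0.44 to 0.02. Of the 11 chaperones and modifiers of LKB1, 1 was called higher. It was *Sirt1*, a deacetylase for which LKB1 is a substrate, at 76.4 CPM ± 9.79 (n = 7) with and 56.8 ± 7.16 (n = 10) without restoration (log2 fold change 0.42, SE 0.0997, adjusted p = 0.026). The *KT* mean of *Sirt1* was 60.6 CPM ± 7.47 (n = 4), and non-restored against *KT* gave -0.09 (SE 0.122, adjusted p = 0.728). The call of *Sirt1* on restoration was lost in 9 of 34 alternatives, where its adjusted p reached 0.237. Among these were the fits without restored replicates 1 (0.0653), 6 (0.0622) and 7 (0.0556). Others were the fits against the tamoxifen arm alone (0.229), against the vehicle arm alone (0.0622) and with effective length offsets (0.147). The sign of *Sirt1* held in all 34. Among the 4 enzymes that farnesylate and process LKB1, 0 were called, from -0.31 to 0.25. In the *Trp53*-deficient comparison and in the interaction, 0 genes of these 4 lists passed. Of all genes 0% passed in either (12518 and 13705 tested), so these counts do not set the lists apart. *Sik1* moved by -0.83 on the log2 scale on restoration in *Trp53*-deficient tumors (SE 0.368, edgeR unadjusted p = 0.0501, adjusted p = 0.803). Its interaction value was -0.01 (SE 0.361). For *Sirt1* the corresponding values were 0.04 (SE 0.312) and -0.43 (SE 0.263).

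**Figure D4:**
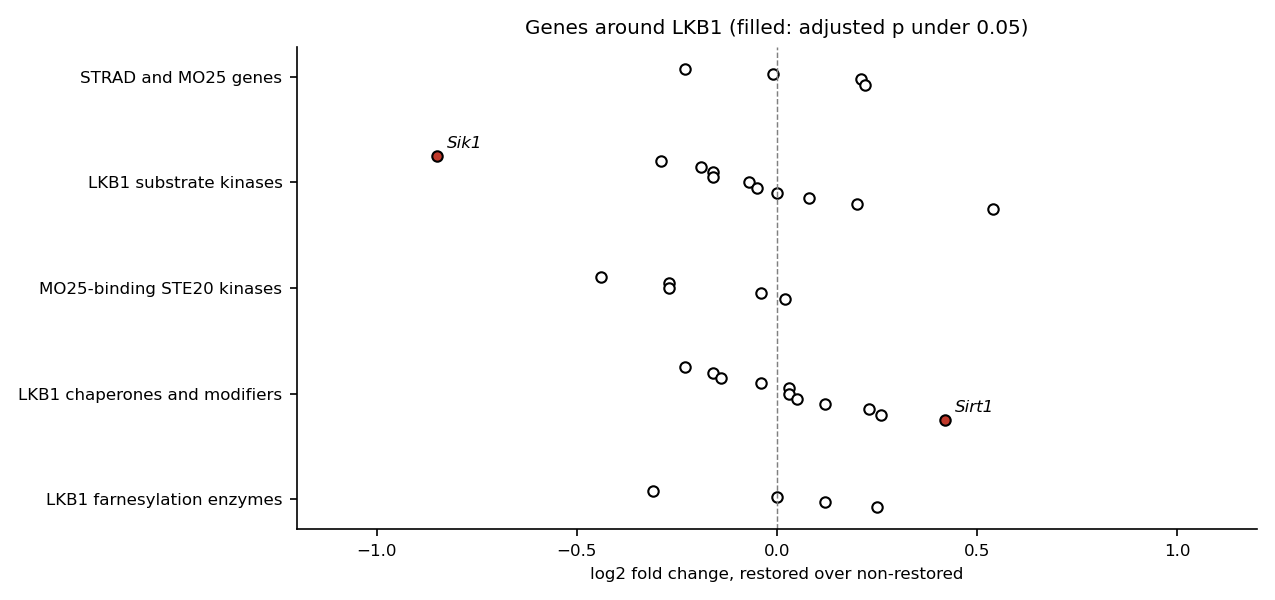
Log2 fold change of restored over non-restored tumors for the STRAD and MO25 genes and for the 4 lists of genes around LKB1, with 1 point per gene tested, filled where the adjusted p was under 0.05. *Sik1* (-0.85) and *Sirt1* (0.42) are filled, and the 4 partners lie between -0.23 and 0.22.

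The trap sits in a gene-dense stretch, so the protein-coding genes within 100 kb of *Stk11* were read in the same fits. Of 11 such genes 10 were tested, and 0 passed in any of the 8 comparisons, in which 0% to 5.86% of all genes passed. Their log2 fold changes ran from -0.46 to 0.78 in restored against non-restored tumors, with a median of -0.02, and from -0.50 to 0.81 in non-restored against *KT*, where the smallest adjusted p was 0.0507. *Cbarp*, on the opposite strand, shares 232 bp of exon sequence with the end of *Stk11*, and a strand setting is not given in the sources used here, so reads of that overlap could be counted for either gene. *Cbarp* measured 16.3 CPM ± 2.42 (SD, n = 7) with and 22.5 ± 4.17 (n = 10) without restoration (log2 fold change -0.46, adjusted p = 0.184), in the opposite direction to *Stk11*. In *Trp53*-deficient tumors its means were 14.2 CPM with and 12.5 without restoration (log2 fold change 0.23, adjusted p = 0.931), in the same direction as *Stk11*.

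Other members also share sequence with neighbors. *Strada* has 160 bp in common with *Ccdc47* on the same strand and 92.988% identity over 328 bp with the processed pseudogene *Gm42861*, and RSEM gave it counts that were not whole in 20 of 32 libraries. *Cab39l* has 263 bp in common with *Cdadc1* on the opposite strand, with counts that were not whole in 6 libraries. *Stradb* and *Cab39* had whole counts in every library (tolerance 0.005). *Ccdc47*, at 187 to 425 CPM, was far more abundant than *Strada*, and its log2 fold change on restoration in *Trp53*-deficient tumors was 0.12 (adjusted p = 0.892), beside 0.81 for *Strada*.

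The genes whose log2 CPM most resembled that of each member were listed over the 32 libraries by Pearson's r among 13255 genes, as a description without a test, since the libraries share depth and group structure. *Stk11* was most like *Arid5b* (r = 0.87), *Prdx6* (0.85) and *Lcp1* (0.84), and since *Stk11* has an on and an off state, these values mainly compare those states. *Lcp1*, which encodes the actin-bundling protein L-plastin, was 474 CPM ± 77.5 in *KT*, 204 ± 37.3 in non-restored and 445 ± 114 in restored tumors. *Lcp1* is also abundant in leukocytes, and the summed immune markers had medians of 57.7, 29.5 and 60.3 CPM in the same groups, reached 318 CPM in a restored library, and their part in this likeness was not tested. *Cab39* was most like *Wdr26* (0.85), a subunit of the CTLH ubiquitin ligase, *Tnks2* (0.82), a tankyrase, and *Atxn3* (0.80), a deubiquitinase. *Cab39l* was most like *Phlda3* (0.70), a known p53 target, *Ube2v1* (0.66) and *Tmem14a* (0.65). *Phlda3* was 7.93 CPM ± 4.43 in non-restored and 0.511 ± 0.552 in *Trp53*-deficient non-restored libraries. The latter ran from 0 to 1.64 CPM, near the floor, and the part of *Trp53* status in this likeness was not tested.

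The STRAD genes had weaker likenesses. *Strada* was most like *Hexdc* (0.68), *Brd9* (0.67) and *Ccdc93* (0.65), and *Stradb* was most like *Cnst* (0.66), *Atpaf1* (0.63) and *Eif3j1* (0.61), the last of which has a near-identical copy, *Eif3j2*, that can share its reads. No other member of the complex was among the 3 genes most like any member.

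Library totals ran from 1302482 to 5943951 expected counts, and the mean was lowest in *KT*, at 1871138. A count of 3 corresponded to 0.505 to 2.3 CPM. All 7 alveolar epithelial markers were detected in every group, with summed levels from 6811 to 57102 CPM over libraries. Summed immune markers stayed between 7.9 and 318 CPM, red blood cell markers reached 6.97 CPM and endothelial markers 95.9 CPM. The sum of 5 fibroblast markers ran from 2.89 to 1655 CPM, with the highest value in a *Trp53*-deficient restored library, and its part in the results was not tested. In bulk RNA, fewer cells that express a gene and less RNA per cell cannot be told apart.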

How the data were processed

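The authors aligned paired reads to mm10 with STAR 2.6.1d in its 2-pass mode and estimated gene abundance with RSEM 1.2.30 (versions per the submitters' processing notes). The deposited expected counts are RSEM's estimated counts per gene and are not normalized. TPM values, as deposited, relate each gene's count to its effective length and to the library total. Tables of the authors' normalized values and of their own DESeq2 comparisons (fold changes and p-values) were not used, and 0 columns of other samples were present.

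Expected counts were rounded, filtered with filterByExpr and scaled by TMM. Groups were compared with edgeR 4.0.16 (R 4.3.3, limma 3.58.1) by quasi-likelihood F tests with robust dispersions, Benjamini-Hochberg adjustment over all genes tested and a threshold of 0.05. One fit held the 21 libraries with wild-type *Trp53*, another the 8 *Trp53*-deficient animals, and the last, with 25 units, gave the interaction and the *Trp53* contrasts. Intervals are at 95%, and logs of CPM used a prior count of 2. Libraries of 1 animal in the labels (29 animal names for 32 libraries) were summed in the *Trp53*-deficient tests, except in the alternative with separate units. The study counts fewer mice than libraries in some groups, so libraries may share a mouse and p-values may be too small. All but the last of these fits were tested on simulated counts with the same dispersion for every gene. The simulation held no libraries sharing a mouse and no change to near absence like that of *Stk11*, so it does not cover those cases. Coordinates come from GENCODE M21, and shared sequence was found with blastn 2.17.0 (at least 75 bp and 90% identity). Alternatives included DESeq2 1.42.0. The members and lists were chosen with earlier results of these data known. Beside the members, at most 2 called genes of a list, the 3 genes most like each member and called neighbors of *Stk11* were to be named. *Cbarp*, *Ccdc47* and *Cdadc1* were named after their values were seen, because they overlap a member, as were the kinases given with TPM medians. The tumor-initiating allele and a marker gene are not reported here.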

Additional observations from a re-analysis of the deposited data

Results flagged for a closer look

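Of the 23 sets of 4 to 10 samples that were screened, 3 held a value that lay far from the rest by Dixon's criterion, and chance alone would mark about 1 in 20. *Cab39* in non-restored replicate 8, in the tamoxifen arm, was 324 CPM, with the nearest library at 266 and the lowest at 200. *Cab39* in *Trp53*-deficient restored animal JB3455 was 200 CPM, with the other 3 animals between 255 and 263. *Cab39l* in *Trp53*-deficient non-restored animal rSP66 was 38.5 CPM from 84 counts, with the other 3 animals between 73.2 and 79.7.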

How the results depend on the processing

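Depth limits *Strada* (9 to 72 counts per library) and the *Stk11* floor most, and the mean depth was lowest in *KT*. *KT* mice were untreated and *Trp53*-deficient tumors were younger, which cannot be told apart from the groups, and all restored libraries came from females. Across 43 settings, 2 of 920 alternative values of the partner genes passed an adjusted p of 0.05 and 68 changed sign, none of which passed, and the causes were not tested.

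The 2 that passed were *Cab39l* in non-restored tumors with against without *Trp53* deletion, where the number of partners called rose from 0 to 1 with DESeq2 and ran from 0 to 1 with single samples left out. *Stk11* on restoration in *Trp53*-deficient tumors passed with DESeq2 (log2 fold change 5.25), with no filter on low counts (5.11), with effective length offsets (5.45) and with all 7 libraries as separate units (5.03), and ran from 4.74 to 5.61 with single animals left out. Its fitted folds are no bounds. A minimum of 10 counts in every library left *Stk11* untested.

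Signs changed as follows on the log2 scale. *Strada*, restored against non-restored, was -0.03 in limma on log2(TPM + 1) and -0.03 on log2(TPM + 0.1). *Cab39l* in the same comparison was 0.01 with at least 10 counts, 0.01 with effective length offsets, 0.00 in a fit of the 2 groups, 0.03 with sex as a covariate, 0.06 in females and 0.09 against the vehicle arm, and from -0.07 to 0.07 with single libraries left out. *Strada*, non-restored against *KT*, was 0.03 in DESeq2, 0.01 with median-of-ratios size factors, 0.03 without a filter, 0.01 with at least 10 counts, 0.20 with length offsets, 0.00 in a fit of the 2 groups, 0.32 in females, 0.31 and 0.36 in limma on TPM and 0.04 for the tamoxifen arm, and from -0.18 to 0.16 with single libraries left out. *Cab39* there was 0.01 in DESeq2, 0.00 with median-of-ratios factors, 0.03 without a filter, 0.06 with length offsets, 0.01 with sex as a covariate, 0.21 and 0.21 in limma on TPM and 0.11 for the tamoxifen arm, and from -0.05 to 0.06 with single libraries left out. *Stradb*, restored against *KT*, was 0.01 with length offsets and 0.04 and 0.04 in limma on TPM, and from -0.20 to 0.06 with single libraries left out. In *Trp53*-deficient tumors *Cab39* was 0.12 with length offsets and from -0.10 to 0.02, and *Stradb* from -0.25 to 0.08, with single animals left out. *Strada* between the tamoxifen and vehicle arms ran from -0.14 to 0.18.

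Replicate numbers do not pair the samples by the labels, and same-numbered samples correlated from -0.05 to 0.48 in their deviations from the group means. With the replicate block 270, 705 and 67 genes passed in restored against non-restored, non-restored against *KT* and restored against *KT*, instead of 236, 741 and 58. *Cab39l* was 0.07 in the first and *Strada* 0.13 in the second comparison under the replicate block, and it changed no call of a member.

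Numbers of called genes moved by over 1.5 times in DESeq2 (467, 168, 23, 413, 216 and 12 instead of 236, 58, 0, 82, 51 and 1 in restored against non-restored, restored against *KT*, *Trp53*-deficient restoration, the *Trp53* contrasts in non-restored and restored tumors and the treatment arms). They also moved for the tamoxifen arm alone (50 instead of 236 and 280 instead of 741), in females (132 instead of 741 and 10 instead of 58), with sex as a covariate (22 instead of 58) and with at least 10 counts (20 instead of 58). With limma on log2(TPM + 1), the median of all genes in non-restored against *KT* was 0.15 instead of 0.03, and 74.4% of called genes were higher instead of 40.6%. With single samples left out, 26 to 1450 genes passed in the *Trp53* contrast of non-restored tumors and 25 to 153 in that of restored tumors.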
